A study of Mus musculus with 12 samples.

Results

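The photoresponse recovery genes encode the proteins that return a photoreceptor to its dark state after light, and they were taken as 10 named mouse genes, Grk1, Sag, Rcvrn, Rgs9, Rgs9bp, Guca1a, Guca1b, Gucy2e, Abca4 and Rdh12. They were chosen by name and role out of 21853 protein-coding genes of GENCODE M21 (mm10), with earlier results of these data known. Comparisons with all genes are therefore descriptions only. A locus is the gene with 5 kb on each side. In whole-genome bisulfite sequencing (WGBS), which reads 5-methylcytosine (5mC) and 5-hydroxymethylcytosine (5hmC) together, 92 of 193836 differentially modified regions overlapped these loci. In bACE-seq, a bisulfite and deaminase assay that reads 5hmC alone, 154 of 592906 regions did. At the 10 loci every listed WGBS region was higher, and every listed bACE-seq region was lower, in the Tet tcKO retina.

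Both assays were made on whole retina of mice at postnatal day 21 (strain label C57 BL/6J), with 3 libraries labelled Cre- (genotype WT) and 3 labelled Tet tcKO in each, 12 libraries in all. In the Tet tcKO group the loxP-flanked alleles of Tet1, Tet2 and Tet3 were removed by the Chx10-Cre-GFP transgene, which is active in retinal progenitors and mosaic in its expression, so some retinal cells may keep the genes. The breeders were in-crossed to carry more than a single copy of the transgene, to limit that mosaicism. Control animals were matched in age and came from Cre- breeders. Whether the controls carry the floxed alleles is not stated in the sources used here. Per the study's methods, DNA was extracted along with RNA from pooled retinas of a pair of animals, and that DNA served for both assays, so a library stands for a pool and the assays share their source. TET enzymes oxidise 5mC to 5hmC and further, and the comparison of the groups asks what happens to cytosine modification when they are missing. The files hold 1 mean level for each group and region, without replicate values or read coverage, so the spread between libraries and the depth behind a level are unknown and no test between the groups could be made. Whole retina mixes many cell types, so a different share of a type, such as rods or cones, and a different level within it cannot be told apart. By staining at this age, the paper reports fewer cells with rod markers and more with cone markers in Tet tcKO. It found no difference in the share of photoreceptors marked by CRX. No file used here holds marker genes with which to check the tissue label.

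When light activates rhodopsin, transducin and a phosphodiesterase lower cGMP, and cation channels close. Recovery needs each step undone: rhodopsin is phosphorylated by rhodopsin kinase and capped by arrestin, transducin hydrolyses its GTP with the help of an RGS9 complex, guanylate cyclases resynthesise cGMP as calcium falls, and all-trans retinal is moved out of the disc membrane and reduced. These genes are expressed mainly by rods and cones, and loss of many of them slows recovery or causes retinal degeneration.

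All 10 genes overlapped at least 1 WGBS region that was higher in Tet tcKO (a WGBS gain), as did 76.8% of all protein-coding genes, so the count by itself does not set them apart. The start site, taken as the 5′ end of the protein-coding transcript with the longest coding sequence, lay inside a gain at 6 of 10 (Grk1, Sag, Rcvrn, Guca1a, Guca1b and Gucy2e), against 5.05% of all genes. At least 1 bACE-seq region lower in Tet tcKO (a 5hmC loss) was found at 10 of 10 genes, against 88.2% of all genes, and the start site lay in such a region at 3 of 10 (Grk1, Guca1b and Gucy2e), against 11.9%. None of the 10 loci held a WGBS region lower in Tet tcKO, which 4.91% of all genes did, or a bACE-seq region higher in Tet tcKO, which 0.403% did.

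The DNA just before the start sites is shown to let the CpG content be seen beside the calls. Each line is the 250 bases that end at the base before the RefSeq start (GRCm38.p6, the mm10 assembly), on the strand of the gene, with CG dinucleotides in capitals. The table of RefSeq start sequences held 7 of the 10 genes and had no entry for Rcvrn, Rgs9bp or Guca1b. In the next 4, all 250 bases lay in a WGBS gain: Grk1 (chr8:13404831-13405080, plus strand), Sag (chr1:87803430-87803679, plus strand), Guca1a (chr17:47400607-47400856, minus strand) and Gucy2e (chr11:69237023-69237272, minus strand).
Grk1: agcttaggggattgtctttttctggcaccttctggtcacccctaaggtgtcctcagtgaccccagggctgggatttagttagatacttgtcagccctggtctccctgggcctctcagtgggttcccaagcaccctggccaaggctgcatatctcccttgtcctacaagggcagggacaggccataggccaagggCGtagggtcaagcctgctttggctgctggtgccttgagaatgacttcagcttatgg
Sag: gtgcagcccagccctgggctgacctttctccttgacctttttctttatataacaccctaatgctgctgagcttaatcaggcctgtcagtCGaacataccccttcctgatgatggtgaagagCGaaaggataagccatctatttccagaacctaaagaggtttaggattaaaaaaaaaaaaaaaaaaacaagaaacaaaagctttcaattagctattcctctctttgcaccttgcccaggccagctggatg
Guca1a: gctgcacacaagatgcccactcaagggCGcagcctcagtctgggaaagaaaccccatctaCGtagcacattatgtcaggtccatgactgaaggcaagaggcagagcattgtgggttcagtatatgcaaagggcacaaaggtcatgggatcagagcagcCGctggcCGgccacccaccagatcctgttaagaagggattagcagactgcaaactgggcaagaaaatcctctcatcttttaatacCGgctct
Gucy2e: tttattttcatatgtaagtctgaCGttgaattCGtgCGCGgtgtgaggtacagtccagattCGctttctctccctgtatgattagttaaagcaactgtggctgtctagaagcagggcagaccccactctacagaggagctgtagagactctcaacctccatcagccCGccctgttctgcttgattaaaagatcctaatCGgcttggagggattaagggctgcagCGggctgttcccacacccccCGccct

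In the other 3, no base lay in a WGBS gain: Rgs9 (chr11:109298182-109298431, minus strand), Abca4 (chr3:122044210-122044459, plus strand) and Rdh12 (chr12:79208663-79208912, plus strand). They are given for comparison.
Rgs9: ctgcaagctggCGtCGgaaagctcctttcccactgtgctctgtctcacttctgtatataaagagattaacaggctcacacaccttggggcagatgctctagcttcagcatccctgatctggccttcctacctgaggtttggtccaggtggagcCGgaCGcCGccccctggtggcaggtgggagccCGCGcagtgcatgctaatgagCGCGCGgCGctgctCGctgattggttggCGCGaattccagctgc
Abca4: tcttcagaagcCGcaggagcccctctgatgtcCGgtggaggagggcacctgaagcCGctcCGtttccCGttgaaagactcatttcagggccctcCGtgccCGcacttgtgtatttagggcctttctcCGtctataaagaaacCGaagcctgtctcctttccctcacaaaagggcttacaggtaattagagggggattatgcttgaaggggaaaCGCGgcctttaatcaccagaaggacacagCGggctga
Rdh12: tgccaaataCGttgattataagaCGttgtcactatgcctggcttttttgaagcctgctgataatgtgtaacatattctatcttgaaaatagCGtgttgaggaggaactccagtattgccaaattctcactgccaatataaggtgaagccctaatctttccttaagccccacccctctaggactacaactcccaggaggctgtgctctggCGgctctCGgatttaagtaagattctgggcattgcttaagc

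The stretches in a gain held 1 CG at Grk1, 2 at Sag, 5 at Guca1a and 9 at Gucy2e, and those outside held 14 at Rgs9, 12 at Abca4 and 5 at Rdh12. The median over 32851 mouse start sequences of this length was 6, so CG number and the call overlap between these few genes. The bases of each stretch that lay in a 5hmC loss were 56 at Grk1, 0 at Sag, 62 at Guca1a, 250 at Gucy2e, 0 at Rgs9, 143 at Abca4 and 217 at Rdh12. The letters TAATCC, a core that the photoreceptor factor CRX is known to bind, were searched on both strands and occurred once each at Sag, Guca1a, Gucy2e and Abca4, 87, 57, 42 and 58 bases before the start. They occur in 6.25% of all such windows. TGCTGAC, part of the NRL element, was found in none of the 7 and in 3.81% of windows, and CAGCTG, an E-box, at Sag and Rgs9, 10 and 7 bases before the start, and in 13.0% of windows. A match describes the letters only.

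Within 1 kb of the start site the genes held 21 (Sag) to 153 (Rgs9bp) CpGs, with a median of 37 against 62 over all genes, and 8 of 10 were below that all-gene median. Rgs9bp, at the 94.1st percentile of all genes, was the exception with the most CpGs, and none of its 153 CpGs there lay in a region of either assay.

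The share of each locus taken up by WGBS gains was highest at Rcvrn (59.2% of bases), followed by Guca1b (48.9%), Rgs9bp (46.9%), Sag (43.2%), Grk1 (36.7%) and Guca1a (34.4%). It was lower at Rgs9 (16.5%), Rdh12 (12.8%), Gucy2e (11.5%) and Abca4 (11.2%). The median of the 10 was 35.6%, against 3.36% over all protein-coding genes, whose upper quartile was 7.62%. Of the 10, 6 lay above the 99th percentile of all genes and 7 above the 90th, and the lowest, Abca4, stood at the 85.8th. For 5hmC losses the order was a different one: Guca1b (82.9%), Guca1a (75.3%) and Rgs9 (74.5%) led, and Rdh12 (46.7%) was last, with a median of 67.0% against 27.7% over all genes.

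**Figure D1:**
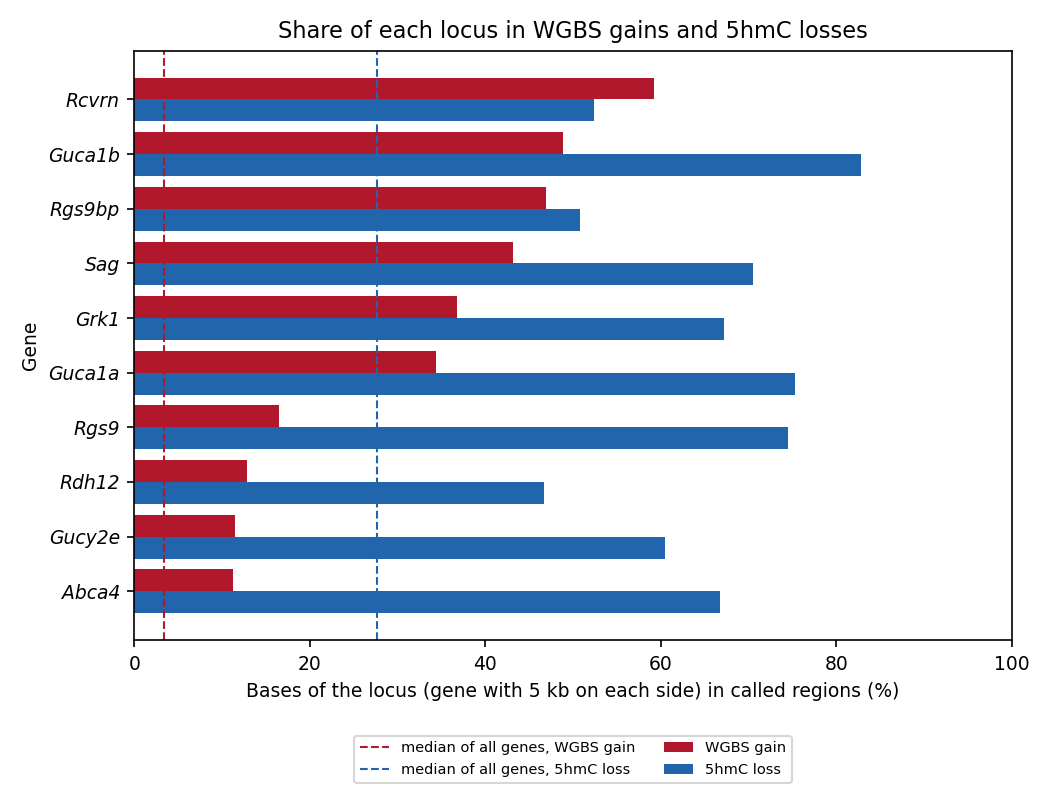
Share of the bases of each locus (percent, horizontal axis) that lay in WGBS gains (red bars) and in 5hmC losses (blue bars), for the 10 genes ordered by the first. Dashed lines are the medians of 21853 protein-coding genes (3.36% and 27.7%), and all 10 genes lie above both.

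Together the 92 WGBS gains held 1610 CpGs and rose from 48.3% modified in Cre- to 71.0% in Tet tcKO, 22.7 percentage points, when each region was weighted by its CpGs. Over all 191164 gains in the series the levels were 56.7% and 74.1%, 17.4 points. The median rise of single regions, 15.2 points, was close to the series' 15.4 points. Long regions weigh more in the pooled level, and 4 of the 92 gains spanned at least 5 kb (4.35%, against 0.0973% of all gains). The 154 5hmC losses held 4109 CpGs and went from 21.6% to 5.24% 5hmC, leaving 24.2% of the control level. The whole list went from 16.1% to 3.86% and kept 24.0%. The called losses at the 10 loci thus held more 5hmC in Cre- than the list as a whole, beside a kept share of nearly the same size. Levels outside called losses are not known. Per the paper, a small part of unmodified cytosines escaped conversion in bACE-seq. Low 5hmC levels can therefore include unconverted cytosines, and kept shares are approximate. The losses at the 10 loci were also longer, with a median of 1111 bp against 521 bp.

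The shut-off of rhodopsin was represented by Grk1, Sag and Rcvrn, which had some of the widest gains. Grk1 (rhodopsin kinase, chr8:13405081-13421951, plus strand) phosphorylates light-activated rhodopsin. Its 4 gains pooled at 40.4% in the control and 75.6% in the mutant retina. A single gain at chr8:13403433-13411891 ran from -1648 to 6810 bp relative to the start site and took in 4 of the 7 coding exons, with 127 CpGs at 38.2% in Cre- and 75.8% in Tet tcKO. This region was the 29th in the list by the size of the authors' region statistic. The 5hmC loss that followed it, from 6810 to 11777 bp, shared its last CpG and no more, and went from 24.3% to 4.34% over 89 CpGs. Shorter 5hmC losses also lay within or across the 5′ gain, such as that from 5111 to 6662 bp (24.8% to 6.51% over 26 CpGs), and 93 of the 151 CpGs of Grk1 in a gain were in a 5hmC loss too. Further into the gene only 2 short gains of 8 and 11 CpGs were listed. None of the 53 CpGs of its UTR class lay in a gain, and 50 of them lay in 5hmC losses.

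Sag (rod arrestin, chr1:87803680-87845158, plus strand) encodes the protein that binds phosphorylated rhodopsin and stops its signal. Its 13 gains averaged 52.1% in Cre- and 79.3% in Tet tcKO. The longest of any of the 10 genes, at chr1:87801332-87816474, ran from -2348 to 12794 bp, 15143 bp with 159 CpGs, and rose from 42.9% to 76.4%. The other 11 inside the gene were short, 4 to 25 CpGs each, and started from 53.8% to 82.7% in Cre-. A further gain past the gene, from 44787 to 46390 bp, resembled the start-site region in level, 34.3% in Cre- and 68.8% in Tet tcKO. Sag also had the highest pooled 5hmC of the 10 in Cre-, 31.2%, which was 7.06% in Tet tcKO. Its highest single region, downstream of the gene from 46335 to 48264 bp and mostly beyond the 5 kb flank, went from 41.9% to 9.34%. Around the start the levels differed by side: the loss from 246 to 924 bp went from 10.4% to 1.52% over 7 CpGs, and that from -1151 to -706 bp from 35.0% to 11.1% over 6 CpGs. CpGs in losses within 1 kb of the start averaged 17.8% in Cre- and 4.39% in Tet tcKO.

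Rcvrn (recoverin, chr11:67695326-67703333, plus strand) encodes the calcium sensor that holds rhodopsin kinase inactive in the dark. A pair of gains covered nearly all of this short gene. The gain at chr11:67693814-67695828, from -1512 to 502 bp, rose from 31.7% to 72.3% over 43 CpGs, and the gain at chr11:67696357-67703720, from 1031 to 8394 bp, rose from 41.4% to 79.5% over 73 CpGs. Of the 155 CpGs of the locus 78.1% lay in gains, the highest share of the 10, and the pooled rise of 38.0 points was also the highest. At the start, the 5hmC loss from 42 to 374 bp went from 7.48% only to 3.78%, so 50.5% of its control level was kept. Unconverted cytosines may make up part of levels this low. The pooled losses kept 26.5%, counting whole regions. Among them was a loss of 84 CpGs from -12199 to -4914 bp that lies mostly outside the locus. All 10 regions of the locus also overlap the annotated gene Glp2r, so none of the Rcvrn values can be assigned to Rcvrn alone.

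Rgs9 and Rgs9bp belong to the complex that speeds GTP hydrolysis by transducin. Rgs9 (chr11:109225355-109298129, minus strand) encodes the GTPase-activating protein itself. Its 19 gains averaged 62.3% in Cre- and 79.6% in Tet tcKO, the highest pooled Cre- level of the 10 genes. The nearest gain began 506 bp after the start and ran to 2976 bp, with 25 CpGs at 28.0% in Cre- and 58.3% in Tet tcKO. The remaining gains were intronic for the most part and small in rise where the control level was already high, such as 84.2% to 90.8% over 25 CpGs from 38911 to 39363 bp. An intronic region from 53139 to 53318 bp was the exception in level, 12.1% and 20.2%. In 5hmC, Rgs9 was covered over 74.5% of its locus. The loss from 2097 to 9595 bp of the first intron held 140 CpGs and went from 31.2% to 10.3%, so 33.0% was kept, against 25.1% over the locus. Of the 54 CpGs within 1 kb of the start, 7 lay in a gain and 4 in a 5hmC loss.

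Rgs9bp (chr7:35578993-35585582, minus strand) encodes the membrane anchor of RGS9. Its CpG-dense start window held no region of either assay, and the main gain lay behind it, from 1324 to 6827 bp, over the long 3′ UTR and the gene's end, with 72 CpGs at 40.1% in Cre- and 62.4% in Tet tcKO. A short gain before that, from 1049 to 1139 bp, was the smallest rise among the 92: 3.87% in Cre- and 6.45% in Tet tcKO. Another gain lay upstream from -4409 to -2218 bp, at 70.8% and 86.7%. That gain and both upstream 5hmC losses overlap the neighbour Ankrd27, so they cannot be assigned to Rgs9bp alone. Its 7 5hmC losses lay outside the start window too, and pooled levels went from 24.3% to 6.60%. The pool counts whole regions, among them a loss of 84 CpGs that reached -7686 bp, past the 5 kb flank. Of the 352 CpGs of the locus 52.0% lay in no region of either kind, the highest share of the 10.

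cGMP resynthesis was represented by Gucy2e, a photoreceptor guanylate cyclase, and by Guca1a and Guca1b, which encode the calcium-sensing proteins GCAP1 and GCAP2 that activate it when calcium is low. These 3 had the smallest pooled rises: 12.3 points at Gucy2e, 16.0 at Guca1a and 15.9 at Guca1b. Gucy2e (chr11:69218117-69237036, minus strand) had the lowest levels, 24.0% in Cre- and 36.3% in Tet tcKO. Its start-site gain, from -513 to 874 bp with 66 CpGs, rose from 11.2% to 23.4%, the lowest Tet tcKO level among the start-site gains. The adjacent gain from 935 to 1086 bp stayed lower still, at 7.08% and 11.1%. 5hmC was lowest here as well, 14.5% in Cre- and 3.47% in Tet tcKO over the locus, and 3.60% and 1.25% in the coding exon region from 383 to 874 bp.

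Guca1a (chr17:47394558-47400584, minus strand) and Guca1b (chr17:47385393-47392967, plus strand) lie end to end with their 3′ ends facing, and their loci share 5 gains and 5 5hmC losses, so they are not independent. Guca1a had a start-site gain from -519 to 418 bp (29.6% in Cre-, 47.4% in Tet tcKO) and a gain over its 3′ end from 5128 to 6292 bp, at 16.2% and 27.8% over 44 CpGs. Between them, the intronic gain from 944 to 2264 bp went from 55.1% to 86.2%. At Guca1b the start-site gain, from -671 to 124 bp, was at 28.0% and 41.1%, while a gain upstream of it, from -3729 to -1946 bp, rose further, from 31.4% to 57.1%. Just after the start, from 272 to 456 bp, a short gain went from 16.9% to 25.0%. Past 1 kb into the gene the Guca1b gains started from 61.2% to 84.2% in Cre- and reached 83.1% to 93.3% in Tet tcKO. A 5hmC loss of 125 CpGs at chr17:47386435-47393987 spanned most of Guca1b and the gap to Guca1a, at 26.2% in Cre- and 5.09% in Tet tcKO. The 3′ end of Guca1a, in contrast, had the low values 5.72% and 0.877% over 18 CpGs.

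Retinoid clearance was represented by Abca4 and Rdh12. Abca4 (chr3:122044443-122180123, plus strand), the flippase that moves retinal conjugates across the disc membrane, is the longest of the 10 and held 28 gains and 61 5hmC losses. Gains nonetheless took only 11.2% of its bases, with 52.8% in Cre- and 72.2% in Tet tcKO. The nearest to the start, from 693 to 2261 bp of the first intron, lay at 20.6% and 38.5%, and the next, from 2603 to 5021 bp, at 32.5% and 55.9%. Another region of low control level lay far inside the gene, from 84557 to 85268 bp, with 28.2% and 58.6%. The 5hmC loss at 91 bp before the start was among the lowest of all, 3.27% and 0.381% over 10 CpGs. Elsewhere in Abca4 5hmC levels in Cre- reached 32.0%.

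Rdh12 (chr12:79208914-79222665, plus strand) encodes a photoreceptor retinol dehydrogenase that reduces retinal. It had 4 gains, pooled at 44.2% in Cre- and 75.4% in Tet tcKO. The largest rise of the 92 regions was in its intron, at chr12:79215494-79216409 from 6580 to 7495 bp: 10 CpGs went from 18.7% to 72.0%, 53.3 points, which exceeded the rise of 99.9% of all gains in the series. No 5hmC region overlapped it. The gain nearest the start, from 510 to 2070 bp, went from 31.4% to 65.9%, and the others started above 70%: 75.7% to 87.5% and 72.4% to 85.7%. The 5hmC losses of Rdh12 covered the smallest share of the 10 loci and were at 26.0% in Cre- and 6.07% in Tet tcKO.

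**Figure D2:**
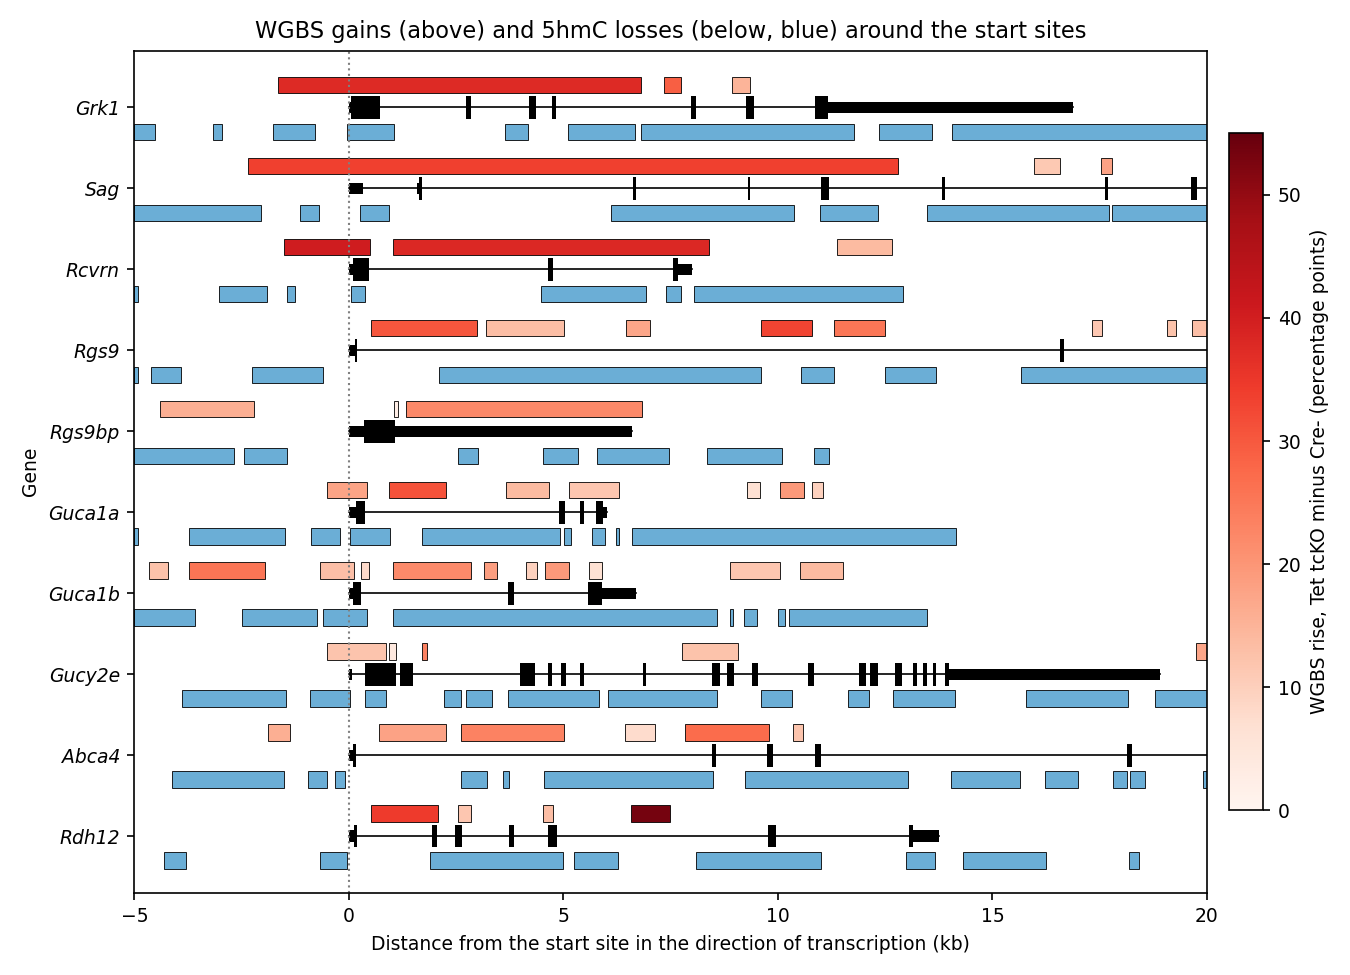
Regions from 5 kb before to 20 kb after the start site of each gene (distance in the direction of transcription, kb). Boxes above each gene are WGBS gains, shaded by the rise in percentage points, blue boxes below are 5hmC losses, and black blocks are exons, with coding parts taller. Gains cross the dotted start line at Grk1, Sag, Rcvrn, Guca1a, Guca1b and Gucy2e, and regions shared by Guca1a and Guca1b are drawn in both rows.

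The level in Cre- differed with position. CpGs in gains within 1 kb of a start site were at 26.0% in Cre- and 49.9% in Tet tcKO, the lowest of the position classes, and 227 of the 518 CpGs there (43.8%) lay in a gain. Intronic CpGs in gains were at 53.9% and 76.8% (30.9% of intronic CpGs), coding-exon CpGs at 48.6% and 66.2% (23.6%), and CpGs of the upstream flank at 51.0% and 74.5% (27.9%). The UTR class, at 39.9% and 60.9%, rested mainly on Rgs9bp, which supplied 74 of its 86 CpGs in gains. The rises differed less than the levels, between 17.6 points in coding exons and 25.3 points in the downstream flank. Each CpG carries the mean of its region here, so a long region such as that of Sag gives its start, exons and introns the same value.

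5hmC losses had the same low point. Of the CpGs within 1 kb of a start 40.5% lay in a loss, at 10.7% in Cre- and 2.65% in Tet tcKO. In introns 81.8% did, at 22.0% and 5.33%, and in coding exons 77.3%, at 20.1% and 4.74%. The kept share varied little over position, from 23.5% in the UTR class to 24.9% in the upstream flank and the start window.

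**Figure D3:**
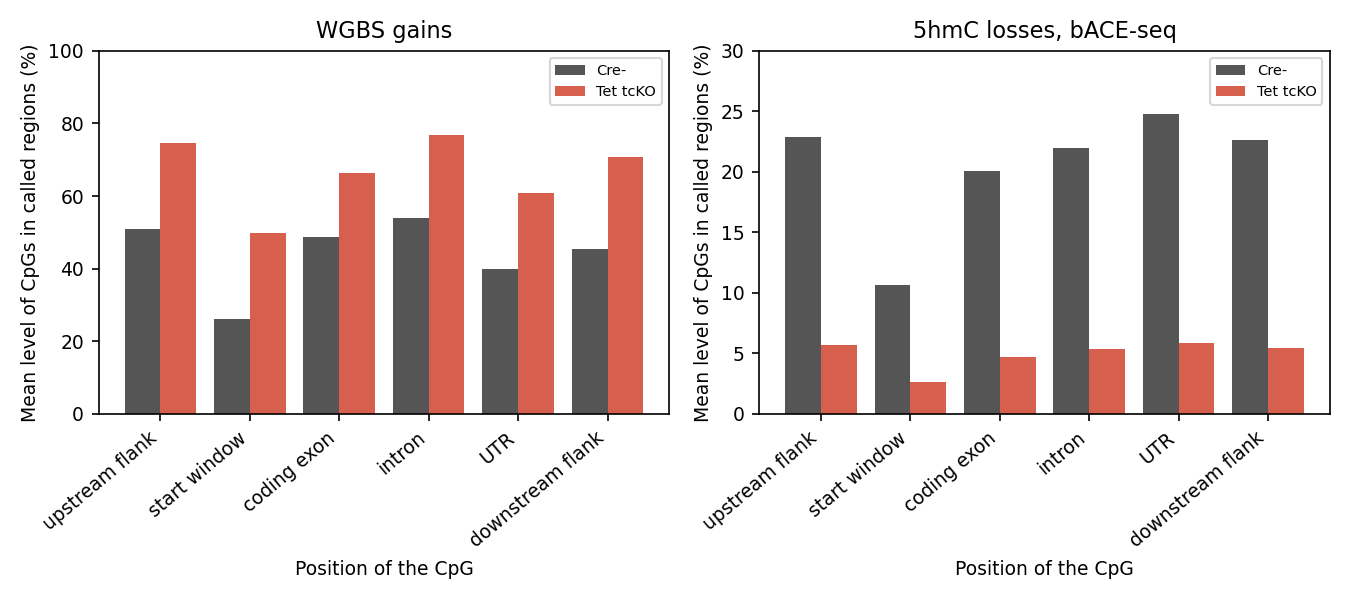
Mean level (percent, vertical axes) of the CpGs that lay in WGBS gains (left) and in 5hmC losses (right), by position in the 10 loci, in Cre- (grey) and Tet tcKO (red). Bars are CpG means of the group levels and carry no error, since the lists hold none. The start window is lowest in both assays and both groups, at 26.0% and 49.9% in WGBS and 10.7% and 2.65% in 5hmC.

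The 6 gains that crossed a start site held 438 CpGs and rose from 34.3% to 64.7%, 30.5 points, and the other 86 from 53.5% to 73.3%, 19.9 points. Among those 6 the levels fell into different ranges. Grk1, Rcvrn and Sag ended between 72.3% and 76.4% in Tet tcKO, and Guca1a, Guca1b and Gucy2e between 23.4% and 47.4%. The start-site regions of rhodopsin shut-off and of cGMP resynthesis did not overlap in level in Tet tcKO, and they did not overlap in Cre- either (31.7% to 42.9% against 11.2% to 29.6%). The regions differ in length, from 2015 to 15143 bp at the shut-off genes and from 796 to 1388 bp at the cGMP genes. CpG density separates them as well, with 1.05 to 2.13 CpGs per 100 bp at the shut-off genes and 2.26 to 4.76 at the cGMP genes. The part of length or density in the split was not tested, and levels of start-site gains over all genes are not given here. A long region averages far into the gene, so its level is not that of the start site alone. Sag and Grk1 supplied 159 and 127 of the 438 CpGs. The split was seen after the values were known and is a description of 6 regions.

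**Figure D4:**
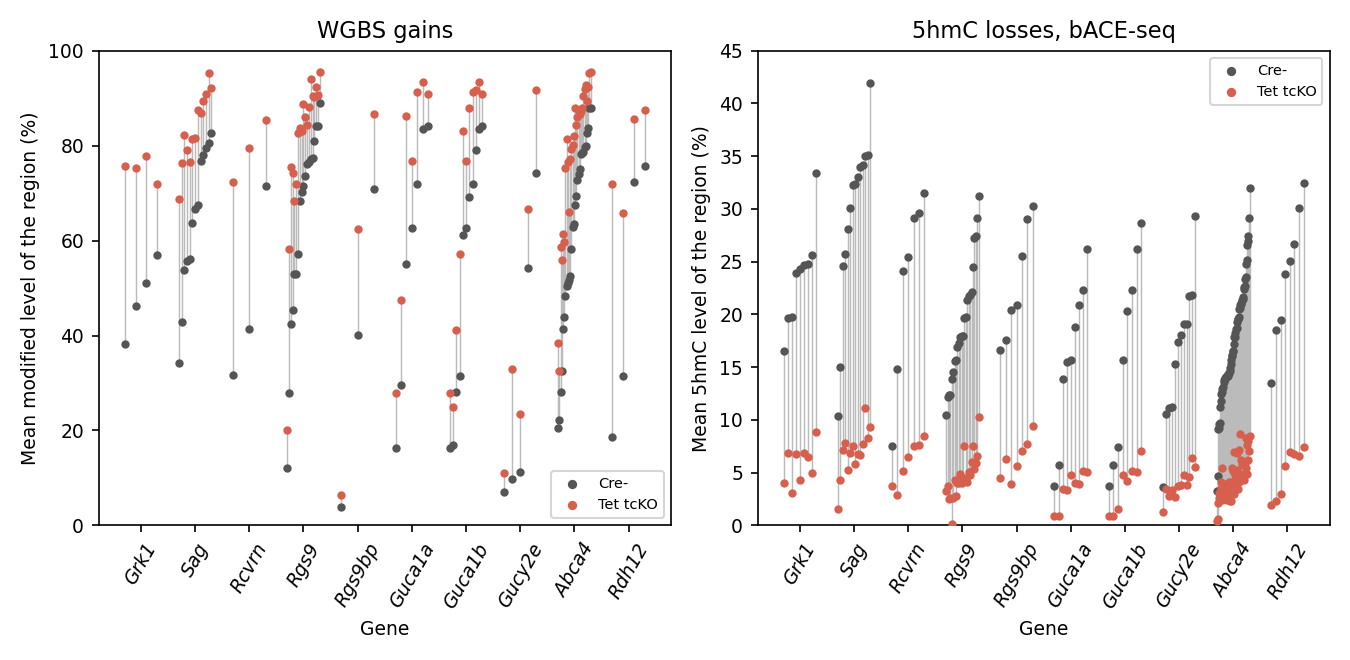
Level of every region in Cre- (grey) and Tet tcKO (red), as percent modified for WGBS gains (left) and percent 5hmC for 5hmC losses (right), by gene and ordered by the Cre- level within it. Thin lines join the values of a region, and each point is a group mean without replicate values. In WGBS the lowest Tet tcKO values are 6.45% at Rgs9bp and 11.1% at Gucy2e. In 5hmC, Tet tcKO values run from 0.102% to 11.1%.

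Gains that were already highly modified in Cre- rose least. The 37 gains at 70% or more in Cre- rose by 11.7 points, and the 35 from 40% to 70% and the 20 below 40% by 26.5 and 25.6 points. Across the 92 regions Spearman's rho between Cre- level and rise was -0.54, and -0.67 across all 191164 gains. The rise is the Tet tcKO level minus the Cre- level, so the Cre- level enters both sides of this relation. All regions share the same libraries, and a level is bounded at full modification, so this is a description. The 5hmC level in Cre- had a weaker relation to the rise, with a rho of 0.22 over the 85 gains that overlapped a 5hmC region. Across the 154 5hmC losses, levels in Cre- and Tet tcKO had a rho of 0.85, so the order of regions by 5hmC was largely the same in both groups.

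Most gains overlapped a 5hmC loss, while 29.6% of the CpGs in 5hmC losses lay in a gain. Of the 92 gains 85 (92.4%) overlapped a 5hmC region by at least 1 bp, against 81.1% of all gains in the series, and of the 154 5hmC losses 79 (51.3%) overlapped a gain, against 24.1%. The gains of the 10 loci were longer than those of the list, with a median of 521 bp against 380 bp, and the part of length in these shares was not tested. In 6 of the 114 overlapping pairs the regions met in a single CpG. Counted by CpG over the 10 loci, 1169 of 5197 CpGs lay in both kinds of region, 442 in a gain alone, 2778 in a 5hmC loss alone and 808 in neither. CpGs in a gain were in a 5hmC loss in 72.6% of cases and the other CpGs in 77.5%. At Rcvrn these shares were 57.9% and 94.1%, and at Grk1 61.6% and 94.9%, so at both genes the DNA outside the gains was the more fully covered by 5hmC losses. Rgs9bp had the opposite order, with 61.6% of the CpGs in a gain and 23.8% of the others in a 5hmC loss.

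At the CpGs in both, WGBS rose from 53.0% to 73.8% while 5hmC went from 22.8% to 5.69%. Because WGBS counts 5mC and 5hmC together, the difference of the levels, 30.2% in Cre- and 68.1% in Tet tcKO, roughly estimates the part that is not 5hmC. Each CpG carries the means of its regions here, and the regions of the assays differ in extent. At the Rgs9 gain from 506 to 2976 bp, WGBS in Cre- was 28.0% and 5hmC of the overlapping loss 31.2%. A part cannot exceed the whole, so these differences and shares are approximate. 5hmC was 43.1% of the WGBS level in Cre- and 7.71% in Tet tcKO. This share in Cre- was highest at Grk1 (56.0%), Rcvrn (53.1%) and Sag (52.4%) and lowest at Rgs9 (35.7%), Guca1b (38.1%) and Abca4 (38.2%). In Tet tcKO it lay between 6.01% (Guca1b) and 10.1% (Rgs9bp). The CpGs in a gain alone had lower WGBS levels, 35.8% in Cre- and 63.6% in Tet tcKO. The levels subtracted here come from separate libraries of the same DNA extractions, and an error for the difference could not be given.

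The wider pathway was represented by 14 further genes of photoreceptor recovery and the visual cycle. Of these, 11 overlapped a WGBS gain, as did 76.8% of all protein-coding genes, and 13 a 5hmC loss, as did 88.2%. Those counts by themselves do not set the 14 apart. The start site lay in a gain at 6 of the 14, against 5.05% of all genes. The median share of bases in gains over the 14 was 11.0%. Rbp3, the retinoid carrier between photoreceptors and pigment epithelium, had the highest share (77.8% of bases, 36.3% in Cre- and 75.2% in Tet tcKO), and Pdc (phosducin, which binds transducin subunits) followed with 62.0% (37.8% and 75.9%). Gnb5, the partner of RGS9, had 38.9%. Arr3 (cone arrestin), Rpe65 and Lrat held no gain, and Rpe65, a pigment epithelium enzyme, held no 5hmC loss either. Activation genes give the nearest comparison: 7 of 8 rod phototransduction genes had the start site in a gain, with a median share of 41.4%, and 4 of 8 cone phototransduction genes, with a median share of 6.23%. By median share the recovery genes, with 35.6%, were closer to the rod than to the cone list. By start sites in a gain, 6 of 10, they lay between those lists. The recovery genes were also spread in share. Rgs9, Rdh12, Gucy2e and Abca4, at 11.2% to 16.5%, lay within the cone range of 1.39% to 26.2%. Of these, Rgs9 also lay within the rod range of 13.9% to 70.3%. The lists were not tested against each other.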

How the data were processed

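WGBS and bACE-seq were made on 6 libraries each, 3 per group. Per the paper's methods, reads were trimmed by the authors (TrimGalore 0.4.4_dev) and mapped to mm10 using Bismark (0.18.2). They filtered on mapping quality (minimum 10, SAMtools 1.15.1), removed duplicates with Picard (GATK 4.1.3) and called CpGs with MethylDackel (0.6.1). The deposited lists are regions called across all libraries with DSS (2.48.0; p 0.01, at least 3 CpGs and 50 bp, merging within 50 bp), and the submitters' notes also name ChIPseeker (1.36.0). Smoothing and merging can widen regions, and levels outside called regions are not in the lists.

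The deposited values are group mean methylation as a fraction (printed as percent), a number of CpGs per region, and the authors' own comparison columns, which hold the difference of the means and a region score. Those columns were used only to order and filter regions. That the first mean is Cre- was read from the comparison named in the lists.

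All region ends fell on reference CpGs, and the listed CpG number matched the genome exactly in 99.2% (WGBS) and 97.3% (bACE-seq) of regions. Regions overlapping a locus by at least 1 bp were taken whole, so pooled levels can include CpGs outside it. Levels were weighted by CpGs, and a CpG in 2 loci was given to 1 gene. Python 3.11.15, numpy 2.4.6, pandas 2.3.3 and scipy 1.17.1 were used, and the overlap code was checked on simulated windows. Named regions were those over or nearest each start site and those of largest statistic in each locus, with low or high levels added after values were seen. The members and lists were chosen with earlier results of these data known. Alternatives covered region filters, flank, weighting, start-site definition and genes left out.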

Additional observations from a re-analysis of the deposited data

How the results depend on the processing

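Of 52 alternative values for 7 results, 47 stayed within the tolerance (counts within 1.5 times, levels and shares within an exact 95% binomial interval). The interval served only as a yardstick for the size of a shift. It does not measure the spread between libraries or animals, and CpGs of a region are not independent. The WGBS rise over the 10 loci was 25.0 points with a stricter region statistic and 17.8 points as an unweighted mean over regions. The median share of a locus in gains was 44.6% without flanks and 29.7% with 10 kb flanks. The median share in 5hmC losses was 79.3% when reference CpGs, not bases, were counted. With any gain within 1 kb, 9 start sites counted in place of 6. The share of all genes under that wider definition is not given here, since the 5.05% refers to the start base alone. Alternatives chosen after seeing the data gave a rise of 23.6 points without Abca4 and 23.2 points as a mean of the genes' own means, and a kept 5hmC share of 23.9% and 23.7%. No paired analysis was possible because the lists hold group means and no replicate values, and for the same reason no library could be left out. Read depth is unknown.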
